A study of Drosophila melanogaster with 2 samples.

Results

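The cuticle protein genes were taken by symbol from the Ensembl annotation of Drosophila melanogaster assembly BDGP6, which is the same assembly as dm6. They were the protein-coding genes named Cpr plus a digit and those with names that begin in Twdl, Lcp, Ccp84, Edg, Acp65 or Pcp. This rule used no measured value and found 122 of 13945 protein-coding genes, made up of 70 Cpr, 25 Twdl, 15 Lcp, 7 Ccp84 and 3 Edg genes with 1 Acp65 and 1 Pcp gene. They were set beside all protein-coding genes and beside 88 cytoplasmic ribosomal protein genes, which encode the subunits of the ribosome.

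Insect cuticle is a layer of chitin fibres and proteins that the epidermis secretes at its apical side and replaces at each moult under the control of the steroid hormone ecdysone. Most Cpr and Lcp proteins carry the Rebers and Riddiford consensus, a stretch that binds chitin, and the family is known for large groups of neighbouring genes that arose by tandem duplication. Twdl genes encode Tweedle proteins, a separate family of which TwdlD is known for mutations that change the body shape of the pupa, and the Edg genes were named as ecdysone-dependent genes of imaginal discs.

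The data were ChIP-seq of the CG15710 protein, in which sonicated chromatin is precipitated with an antibody and the recovered DNA is sequenced. The chromatin came from whole pupae aged 24 hours, with males and females pooled, of a single transgenic line that expressed CG15710 with GFP at its C-terminus, and the antibody was directed against GFP. The labels name 1 group of 2 biological replicates, replicate 1 and replicate 3, so every value describes these lists of peaks and the design holds no second group to compare. The event from which the age was counted, and the promoter of the transgene, were not given in the sources used here.

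There were 4 deposited peak lists. The lists of replicate 1, of replicate 3 and of the pooled replicates held 30000 peaks each. The list left by the authors' irreproducible discovery rate (IDR) step, a filter on how alike peaks rank in replicates, held 8483. A peak of the IDR list need not have a summit in both replicate lists. A peak was placed by its summit, the base of highest enrichment, and a gene was counted as having a summit when one lay within 500 bp of any of its annotated transcription start sites (TSSs). The signal of a peak is the authors' own value on a scale that is not stated, so it was used to rank or describe peaks within 1 list. The lists carry no read counts, so the depth is unknown, and the 95% exact Clopper-Pearson intervals cover the counting of genes alone. Genes of one cluster share their neighbourhood and are not independent of each other. In whole animals, binding in fewer cells and weaker binding in each cell cannot be told apart.

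Few cuticle protein genes had a CG15710 summit at their start. In the IDR list, 2 of the 122 genes had one, Cpr72Ea and Cpr12A, a share of 1.64% (95% interval 0.199% to 5.80%), against 24.6% of all protein-coding genes (3426 of 13945). Both encode proteins of the chitin-binding Cpr family. In the pooled list the count was 13 of 122 or 10.7% (5.80% to 17.5%), against 47.0% of all protein-coding genes. The replicate lists gave 14 of 122 each, 11.5% (6.42% to 18.5%), against 48.2% of all protein-coding genes in replicate 1 and 46.6% in replicate 3. In each of the 4 lists the upper limit of the interval was below the share of all protein-coding genes, which include the cuticle protein genes. The intervals treat genes as independent, which genes of one cluster are not, so this is a description and not a test. Of the ribosomal protein genes, 75.0% (66 of 88) had an IDR summit and 92.0% (81 of 88) a pooled summit.

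The sequences upstream of Cpr72Ea and Cpr12A, the pair with an IDR summit, are printed first, followed by the starts of 3 genes from clusters with no IDR summit inside them. Sequences come from the RefSeq copy of the dm6 assembly, run 5′ to 3′ on the strand of the gene and end at the base before the TSS. Capitals mark TATAAA, the consensus of the TATA box, and in the first pair also the 11 bases centred on the IDR summit. Cpr72Ea covers chr3L:16362303-16362602 on the plus strand, 300 bases. Cpr12A covers chrX:13543343-13543642 on the plus strand, and there the marked summit bases overlap the end of a TATAAA, so that both form 1 run of capitals. The other genes are shown over 120 bases: TwdlM at chr3R:26618998-26619117 (plus), Edg84A at chr3R:6684325-6684444 (plus) and Cpr76Ba at chr3L:19518333-19518452 (minus). No annotated exon overlaps any of these stretches (0 exons).
Cpr72Ea: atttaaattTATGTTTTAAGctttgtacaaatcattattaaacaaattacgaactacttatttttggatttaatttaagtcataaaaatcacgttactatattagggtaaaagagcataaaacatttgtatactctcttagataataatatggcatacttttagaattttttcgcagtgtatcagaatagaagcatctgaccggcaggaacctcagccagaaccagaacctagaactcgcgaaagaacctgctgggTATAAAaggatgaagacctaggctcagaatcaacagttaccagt
Cpr12A: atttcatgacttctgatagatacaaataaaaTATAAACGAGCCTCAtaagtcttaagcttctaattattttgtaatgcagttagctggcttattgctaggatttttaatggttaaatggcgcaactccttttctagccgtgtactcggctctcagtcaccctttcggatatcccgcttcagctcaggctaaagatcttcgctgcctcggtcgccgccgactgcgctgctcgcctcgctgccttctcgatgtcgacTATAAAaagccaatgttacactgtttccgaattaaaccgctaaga
TwdlM: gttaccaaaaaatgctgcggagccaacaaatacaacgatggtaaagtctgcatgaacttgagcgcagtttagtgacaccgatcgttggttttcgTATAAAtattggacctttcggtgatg
Edg84A: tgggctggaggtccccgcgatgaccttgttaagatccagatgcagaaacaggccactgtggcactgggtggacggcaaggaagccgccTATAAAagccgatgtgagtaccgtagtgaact
Cpr76Ba: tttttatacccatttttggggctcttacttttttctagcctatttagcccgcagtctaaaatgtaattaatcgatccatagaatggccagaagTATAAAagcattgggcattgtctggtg
In these 5 genes the TATAAA nearest the TSS starts at base -44 in Cpr72Ea, -45 in Cpr12A, -26 in TwdlM, -32 in Edg84A and -27 in Cpr76Ba, counting back from -1.

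The Cpr72Ea summit (FBgn0036617) lay 286 bp upstream of the TSS, at base 16362317 of arm 3L, in intergenic DNA. Its signal was 369 in the pooled and IDR lists, at rank 3796 in both, 226 in replicate 1 (rank 3790) and 149 in replicate 3 (rank 3799). The rank was thus nearly the same in the pooled list and in each replicate. The summit of replicate 1 was at 287 bp and that of replicate 3 at 316 bp upstream. Closer to the TSS, a weaker summit appeared in the pooled list at 83 bp upstream with a signal of 85.7, and both replicates had one within 116 bp.

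Cpr12A (FBgn0030494) is on the X chromosome and belongs to no cluster. Its IDR summit lay 260 bp upstream of the TSS with a signal of 271 (rank 5170), 139 in replicate 1 (rank 6198) and 143 in replicate 3 (rank 3978, 309 bp upstream). Here the replicates differed in rank, with replicate 3 higher in its list. A second IDR summit lay 952 bp upstream with a signal of 174.

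The genes just outside the limit of 500 bp were also Cpr genes. The nearest was Cpr72Eb, whose summit at 533 bp upstream had a signal of 1189.5 (rank 809), 758 in replicate 1 (rank 767) and 434 in replicate 3 (rank 938). This was the strongest summit inside any of the cuticle gene clusters in the IDR list. Cpr62Ba followed at 780 bp with a signal of 272 (178 in replicate 1, 92.4 in replicate 3), in one of its own introns, and Cpr65Ea at 903 bp with 321 (196 in replicate 1, 125 in replicate 3). In these 5 genes, which were all those with an IDR summit within 1000 bp, the nearest summit was upstream of the nearest TSS. In Cpr62Ba this is the internal TSS of 2, and the summit lies downstream of the other. At 1000 bp the share was 4.10% (5 of 122, 1.34% to 9.31%), against 28.6% of all protein-coding genes. At 250 bp it was 0 of 122, which allows up to 2.98%, against 19.5%.

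The pooled list added 11 genes to the pair, with weaker summits. Cpr97Ea and Cpr97Eb, neighbours on arm 3R outside any cluster, each had a summit with a signal of 125, at 464 and 471 bp upstream. In Cpr97Eb both replicates had a summit at about the same place, with a signal of 76.5 in replicate 1 and 40.7 in replicate 3. Lcp9, a larval cuticle protein gene, was counted through a summit with a signal of 85.0 that lay 440 bp upstream but was nearer to another gene, 49 bp from the TSS of CG3594. Cpr51A had a signal of 61.7 at 333 bp inside the gene, with 41.2 in replicate 1 and 38.5 in replicate 3 for the strongest summit within 500 bp. Lcp65Ad had 60.9 at 156 bp inside the gene and 58.2 in replicate 1, but no summit within 500 bp in replicate 3. The remaining genes were Cpr65Ec (56.6), Cpr62Ba (41.1), the ecdysone-dependent gene Edg91 (36.9), Cpr100A (35.1), Cpr47Ec (33.7) and TwdlE (32.2), which was the only Twdl gene.

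The strength of these pooled summits was set beside that of all genes. Over the 13 genes the strongest summit within 500 bp had a median signal of 60.9 (range 32.2 to 369), against a median of 168 (27.7 to 9376) over the 6553 protein-coding genes with a pooled summit. The authors' q-value was at most 0.05 for 7 of the 13 (53.8%), against 86.8% of the 6553. The overlap of the replicates was counted too. A summit was present within 500 bp in both replicates for 8 cuticle protein genes, in replicate 1 alone for 6 and in replicate 3 alone for 6, so that 40.0% of the 20 genes with any were in both, against 71.3% (5500 of 7713) for all protein-coding genes. The other 102 genes had none in either replicate, nor in the pooled list. The q-value was at most 0.05 for 70.5% of all peaks in replicate 1 and for 52.6% in replicate 3. The overlap was not matched for signal.

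**Figure D1:**
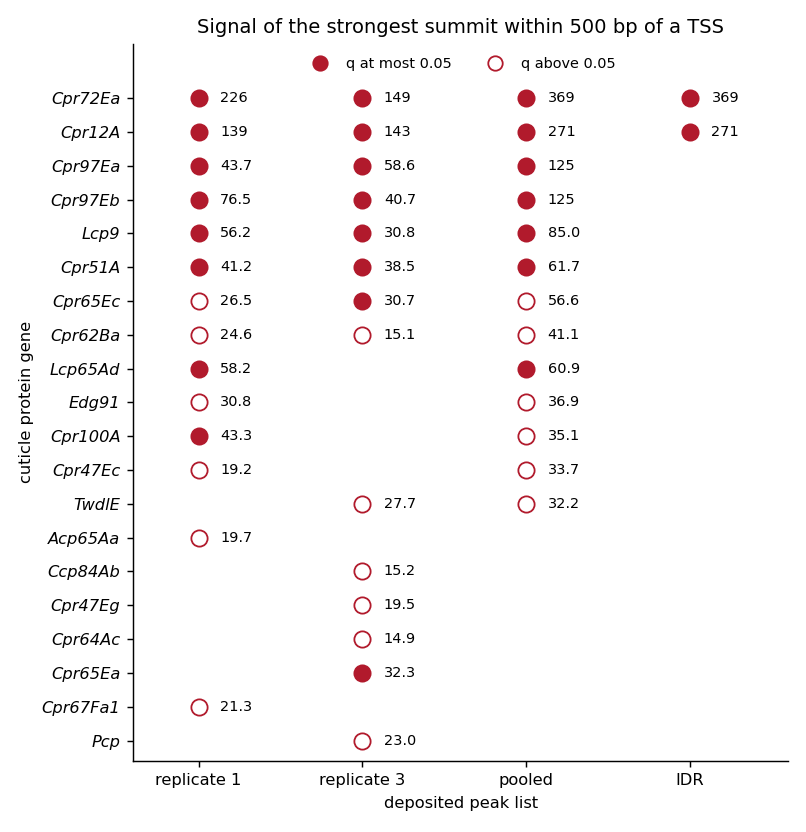
Signal of the strongest summit within 500 bp of a TSS (printed beside each circle, the authors' scale, comparable within a column) for the 20 cuticle protein genes with one in any of the 4 peak lists. Filled circles have a q-value of at most 0.05, and the IDR column holds Cpr72Ea (369) and Cpr12A (271).

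By family, of 70 Cpr genes, 2 had an IDR summit and 9 a pooled summit, beside 24.6% and 47.0% of all protein-coding genes. Of the 25 Twdl genes, 0 had an IDR summit and 1 a pooled summit, and of the 15 Lcp genes 0 and 2. None of the 7 Ccp84 genes had an IDR or a pooled summit, and 1, Ccp84Ab, had a summit in replicate 3 with a signal of 15.2. Pcp, which encodes a pupal cuticle protein, had a summit in replicate 3 alone (signal 23.0, 441 bp upstream), and Acp65Aa, the adult cuticle protein gene, in replicate 1 alone (signal 19.7, 411 bp upstream). All 3 values were below the median signal of their list, which was 51.1 in replicate 1 and 31.8 in replicate 3.

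Distances to the nearest summit were long. The median from a cuticle protein TSS to the nearest IDR summit was 14500.5 bp (n = 122), against 4662 bp for the other 13823 protein-coding genes and 66.5 bp for the ribosomal protein genes. More than 10 kb separated 60.7% of the cuticle protein genes (74) from the nearest IDR summit, against 31.7% of the others. Within 2000 bp there were 12 of the 122, within 5000 bp 25, within 10000 bp 48 and within 50000 bp 101. Shares of the other genes within 2000, 5000 and 50000 bp are not given here. The counts at those distances therefore stand without a background and do not show whether they are low. In the pooled list the medians were 6886 bp for cuticle protein genes and 759 bp for the others, in replicate 1 they were 8078 and 629 bp, and in replicate 3 they were 3712 and 712 bp. The direction was the same in each list, and the median of the cuticle protein genes was shortest in replicate 3. When the 8483 strongest peaks of replicate 3 alone stood in for the IDR list, the median was 7873 bp for cuticle protein genes and 4422 bp for the others.

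**Figure D2:**
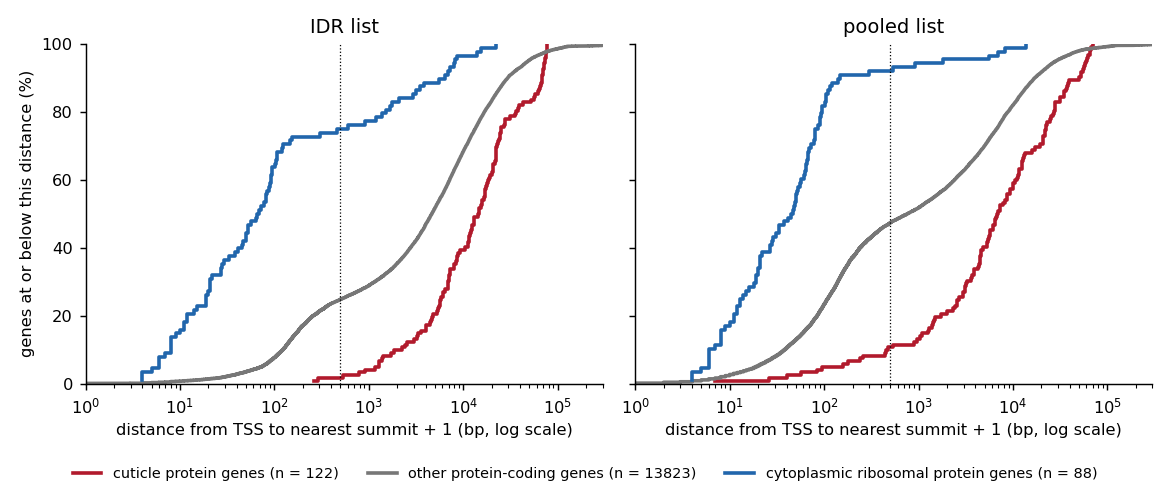
Share of genes (%) whose TSS lies at or below a distance (bp, log scale, 1 added) from the nearest IDR summit (left) or pooled summit (right), for 122 cuticle protein genes, 13823 other protein-coding genes and 88 ribosomal protein genes. The dotted line is at 500 bp, and the curve of the cuticle protein genes is to the right of the others over most of its range, with medians of 14500.5 and 6886 bp.

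The distance varied by family, in an order that depended on the list. The median to an IDR summit was 8756 bp for Cpr genes (260 to 52402), 18516 bp for Lcp genes (4003 to 31370), 43183 bp for Twdl genes (4787 to 77702) and 68147 bp for Ccp84 genes (56795 to 74151). In the pooled list the medians were 5318 bp for Cpr, 4595 bp for Lcp, 22548 bp for Twdl and 27700 bp for Ccp84 genes. In replicate 3 they were 2804, 5284, 8527 and 1940 bp in the same order, so the Ccp84 genes had the shortest there. The Ccp84 genes lie in a single cluster, so their distances are not independent. To an IDR summit, members of clusters had a median of 17276 bp (n = 88) and the 34 single genes one of 7946 bp. The 5 genes farthest from an IDR summit were TwdlS (77702 bp), TwdlR (77175), Edg84A (76434), TwdlH (76022) and TwdlD (74365). All 5 are on arm 3R, and 4 of them are neighbours in 1 Twdl cluster. In replicate 3 the nearest summits were closer to them, between 2234 and 8527 bp.

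Runs of at least 3 cuticle protein genes with at most 20 kb between neighbours gave 15 clusters, which held 88 of the 122 genes. Each cluster was bounded by the first and last base of its cuticle protein genes. A summit just beyond an end gene thus counted as outside, as did the IDR summit of Cpr72Ea. There were 3 clusters on arm 2R, 8 on 3L, 3 on 3R and 1 on X. They spanned 4.70 to 38.5 kb each and 243 kb in all, 0.182% of the genome. Inside them lay 6 IDR summits, a density of 24.7 per Mb, against 63.5 per Mb over the genome. The pooled list had 19 (78.1 against 224 per Mb), replicate 1 had 18 (74.0 against 224 per Mb) and replicate 3 had 28 (115 against 224 per Mb). Density inside the clusters was below that of the genome in each of the 4 lists. Matches between the replicates were also counted. A summit of the other replicate lay within 200 bp for 8 of the 18 in replicate 1 (44.4%, against 65.8% of all its summits) and for 8 of the 28 in replicate 3 (28.6%, against 63.3%).

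**Figure D3:**
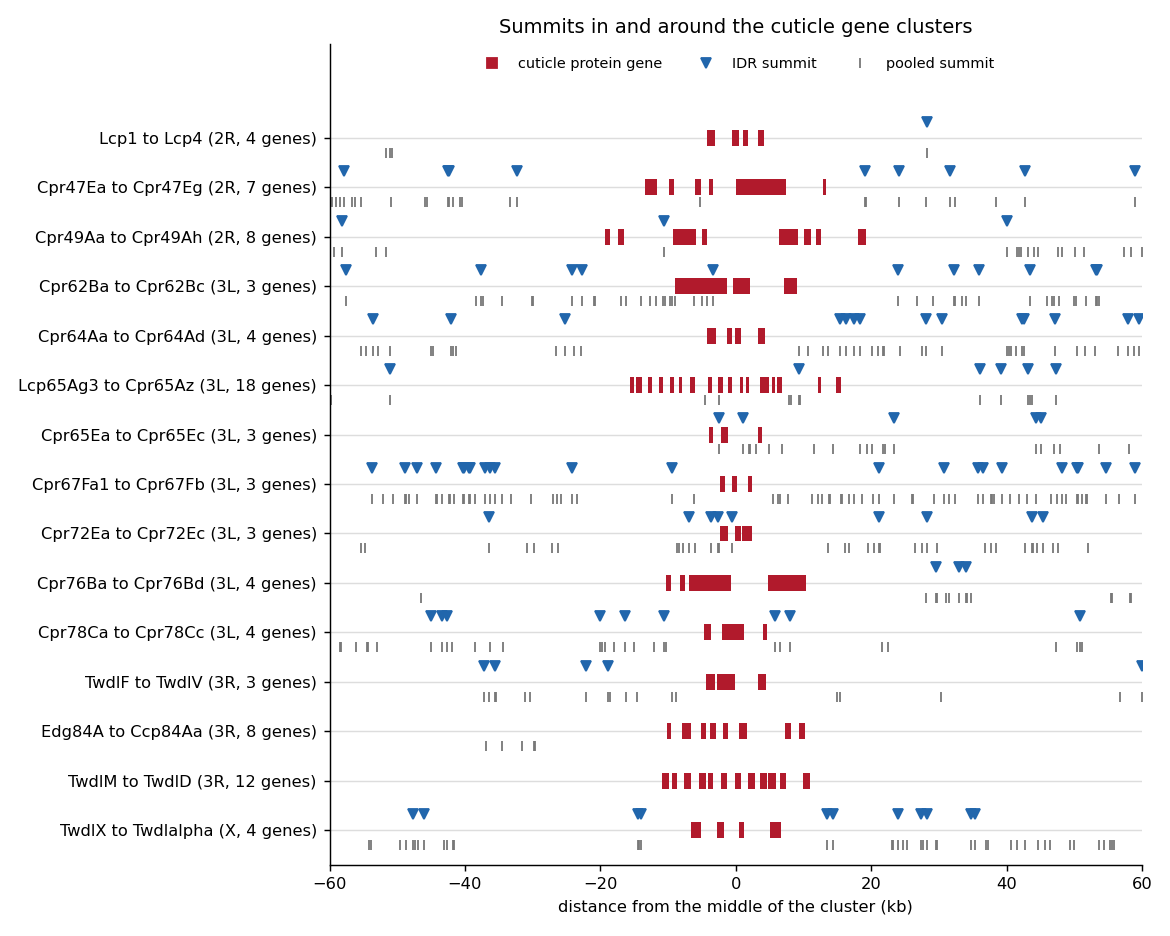
Map of the 15 clusters, each centred on its middle (distance in kb), with cuticle protein genes as red boxes, IDR summits as blue triangles above the line and pooled summits as grey ticks below it. IDR summits inside a cluster number 6, in 5 of the 15 clusters, and the rows of Edg84A to Ccp84Aa and of TwdlM to TwdlD show no IDR summit within 50 kb of the middle.

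Of the 15 clusters, 10 with 53 genes held no IDR summit, and 6 of these with 31 genes held no summit in any of the 4 lists. The 6 were Lcp1 to Lcp4, Cpr76Ba to Cpr76Bd, Cpr78Ca to Cpr78Cc, TwdlF to TwdlV, TwdlM to TwdlD and TwdlX to Twdlalpha. Just beyond their ends, an IDR summit (signal 336) lay 1145 bp from Cpr78Ca to Cpr78Cc. Summits of replicate 3 lay 806 bp from Cpr76Ba to Cpr76Bd (signal 179) and 1205 bp from TwdlM to TwdlD (33.2). At the rest of the 6, the nearest summit of any list was at least 3479 bp away. The starts of TwdlM and Cpr76Ba printed above are from this set of 6. The other 4 clusters without an IDR summit were Cpr47Ea to Cpr47Eg, Cpr64Aa to Cpr64Ad, Cpr67Fa1 to Cpr67Fb and Edg84A to Ccp84Aa. Each of them held a summit in at least 1 of the other lists. In the 7 genes of Cpr47Ea to Cpr47Eg, replicate 3 had 5 summits with signals from 15.2 to 84.8, while replicate 1 had 1 (19.2). The 8 genes of Edg84A to Ccp84Aa had 3 summits in replicate 3, with signals from 15.2 to 24.1, and 0 in replicate 1 and in the pooled list.

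Of the 5 clusters with an IDR summit, 4 consisted of Cpr genes. Cpr72Ea to Cpr72Ec, 3 genes in 4738 bp, held the summit of 1189.5 between Cpr72Ea and Cpr72Eb. Cpr65Ea to Cpr65Ec, also 3 genes, held 2, with signals of 321 and 173, and Cpr62Ba to Cpr62Bc held that of 272. The 8 genes of Cpr49Aa to Cpr49Ah had 1, 1375 bp upstream of Cpr49Ac, with a signal of 254 and one of 112 in replicate 3, but replicate 1 had 0 summits in that cluster.

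The fifth, Lcp65Ag3 to Cpr65Az, has the most genes, 18 in 31204 bp of arm 3L, among them the larval Lcp65A genes and Acp65Aa. Its IDR summit had a signal of 464 (rank 2977), 368 in replicate 1 (rank 2148) and 80.6 in replicate 3 (rank 6857). It was nearest to a noncoding gene, lncRNA:CR45421, 104 bp upstream of its TSS, and more than 500 bp from every cuticle protein TSS. The 101 bases centred on this summit and on that of Cpr72Ea to Cpr72Ec, the summits of highest signal inside clusters, are shown on the plus strand, with the 11 central bases in capitals. The first is chr3L:16364316-16364416 and the second chr3L:6155257-6155357. No annotated exon overlaps either stretch, and the G and C content is 27.7% in the first and 40.6% in the second.
Cpr72Ea to Cpr72Ec summit: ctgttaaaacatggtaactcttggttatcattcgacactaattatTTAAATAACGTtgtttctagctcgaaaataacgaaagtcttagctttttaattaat
Lcp65Ag3 to Cpr65Az summit: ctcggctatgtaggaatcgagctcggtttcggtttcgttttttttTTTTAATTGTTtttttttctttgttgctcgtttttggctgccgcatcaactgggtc

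Outward from the clusters, the nearest IDR summit was at a median of 19.3 kb from a cluster edge (30 edges, 286 bp to 178581 bp), and 23 of the 30 edges were more than 10 kb away. The distance of 286 bp is to the summit upstream of Cpr72Ea, itself an end gene. The medians were 16.3 kb in the pooled list, 16.0 kb in replicate 1 and 7.03 kb in replicate 3. No such distance is given here for other stretches of the genome, so the edge distances stand without a background. The Edg84A to Ccp84Aa cluster lies between lab and pb, homeotic genes of the Antennapedia complex, and its edges were 178581 and 55976 bp from an IDR summit. The stretch free of IDR summits around it was 255015 bp long, rank 18 of 8477 such intervals by length, and the summit at its upper end lay 1413 bp upstream of bcd, the gene of the anterior determinant Bicoid. The 12 genes of TwdlM to TwdlD lay in an interval of 156680 bp (rank 57). Its lower end was a summit of 169 in an intron of scrib, a cell polarity gene, and its upper end one of 2005 (rank 271) 231 bp upstream of amon, which encodes a prohormone convertase. Lcp1 to Lcp4 lay in 117060 bp (rank 123) and Cpr76Ba to Cpr76Bd in 113158 bp (rank 137). Thus 4 of the 15 clusters lay in intervals over 100 kb, of which the genome had 174. A long interval covers more of the genome than a short one. The share of bases or genes in such intervals was not computed, so this count and the ranks stand without a background. The median interval around a cuticle protein TSS was 51353 bp (n = 122), against 28686 bp around the TSS of another protein-coding gene (n = 13749 with a summit on both sides), while the median of all intervals was 4891 bp.

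At the other long clusters the nearest IDR summits were at the starts of other genes. Those of Cpr47Ea to Cpr47Eg were 18957 bp away, near metro (signal 209), and 5702 bp away, near CG13220 (309.6). Those of Cpr49Aa to Cpr49Ah were at 38823 bp, at the TSS of Den1 (168), and at 20761 bp, near DUBAI (995). Those of Lcp65Ag3 to Cpr65Az were at 35516 bp, near loj (1062), and at 20406 bp, near CG10274 (555). Each of these 6 summits lay within 500 bp of the TSS named. Of the genes adjoining the 30 edges, 5 had an IDR summit within 500 bp and 12 a pooled summit, beside 24.6% and 47.0% of all protein-coding genes.

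Summit density was then followed outward. In the 20 kb outside each cluster there were 51.7 IDR summits per Mb, from 20 to 50 kb there were 80.0, from 50 to 100 kb 76.0, and in the rest of the genome 63.2. Protein-coding genes that are no cuticle protein genes but start inside a cluster numbered 13, and 0 had an IDR summit (upper limit 24.7%). In the 20 kb outside, 17.7% did (20 of 113, 11.2% to 26.0%). From 20 to 50 kb the share was 24.5% (37 of 151), and from 50 to 100 kb it was 18.2% (43 of 236). It was 25.0% (3324 of 13310) in the rest of the genome, so the share did not rise steadily with distance. With 13 genes the upper limit is close to the IDR share in the rest of the genome. In the pooled list 0 of these 13 genes had a summit. The pooled share was 33.6%, 54.3% and 40.3% in the 3 zones outward and 47.5% in the rest of the genome.

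**Figure D4:**
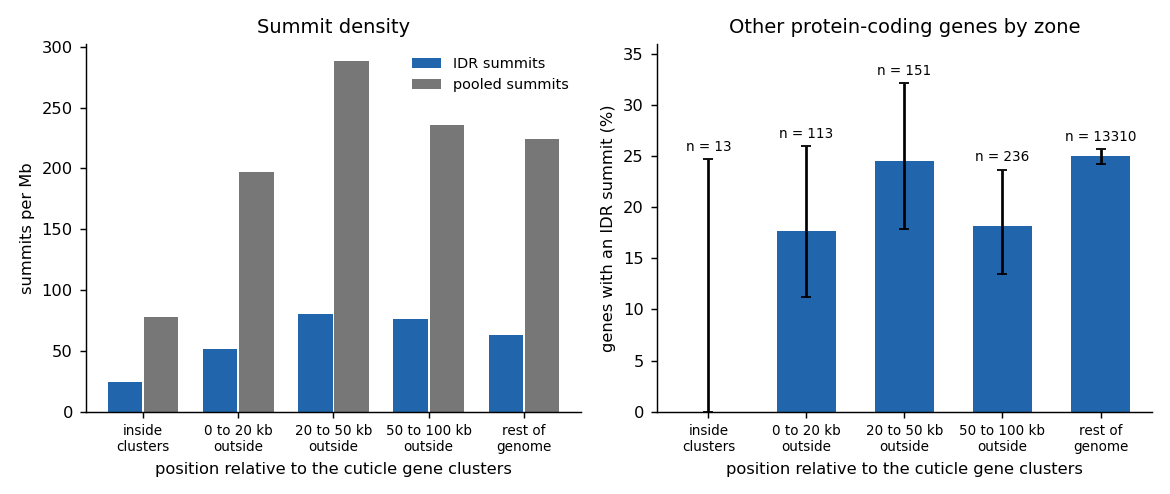
IDR and pooled summits per Mb (left) and the share of other protein-coding genes with an IDR summit within 500 bp (right, %, bars with 95% exact intervals), inside the clusters, in 3 zones outside them and in the rest of the genome. IDR density was 24.7 per Mb inside, 51.7 in the first 20 kb and 63.2 in the rest of the genome.

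The cuticle protein genes differed from other genes in features that the rule did not use. They were short, with a median length of 954 bp against 2182 bp for the others, and 91.0% (111) had a single annotated TSS, against 73.3%. A divergent neighbour, another protein-coding gene that starts on the opposite strand within 1000 bp upstream, was present for 10.7% (13), against 35.5%, and in 8 of the 13 the neighbour was itself a cuticle protein gene. Promoters, taken from 250 bases before to 50 after the most upstream TSS, had a median G and C content of 44.0%, against 38.0% in other genes and 37.0% in other genes with an IDR summit. The string TATAAA occurred on either strand of 75.4% of these promoters, against 45.5%. On the strand of the gene between bases -40 and -15, where a TATA box sits, it occurred in 57.4% (70 of 122), against 7.36% of other genes. Of the 5 starts printed above, TwdlM, Edg84A and Cpr76Ba have it there, and in Cpr72Ea and Cpr12A it begins a few bases farther upstream. These 5 are examples and cannot show whether its place goes with a summit, because 52 of the 122 genes lack it there.

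Other strings were searched on both strands of the same promoters, each by itself, so that a base could count for several. GAGAG, the core of sites of the GAGA factor, was in 30.3% of cuticle protein promoters and 29.7% of others. CACGTG, the E-box of many basic helix-loop-helix proteins, was in 2.46% and 4.22%. TATCGATA, the core of the DNA replication-related element, was in 0.820% (1 gene) of cuticle protein promoters, 9.43% of others and 29.5% of ribosomal protein promoters. A match is only a string of letters in this window.

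Over all protein-coding genes, TATAAA at -40 to -15 went with a lower IDR share (8.28% with it, 25.9% without), while TATAAA anywhere in the promoter did not (25.3% with it, 23.9% without). The cuticle protein genes were therefore also set beside genes of like TSS number, neighbours and TATAAA at -40 to -15. Among genes with 1 TSS the IDR share was 1.80% (2 of 111), against 18.6%, and the pooled share 9.01% (10 of 111), against 38.9%. Among genes with 1 TSS and no divergent neighbour it was 1.98% (2 of 101, 0.241% to 6.97%), against 9.54% (648 of 6791). The gap was thus smaller between genes of this layout. Of these, genes with TATAAA at -40 to -15 had an IDR summit in 0 of 62 cuticle protein genes (upper limit 5.78%), against 4.42% (33 of 746). Genes without it there had one in 5.13% (2 of 39, 0.627% to 17.3%), against 10.2%. The 2 genes are Cpr72Ea and Cpr12A, in which TATAAA starts at -44 and -45, just outside that window. In both of these last classes the interval of the cuticle protein genes includes the share of all genes, so these counts cannot tell the shares apart. Among genes with 2 or more TSSs, 0 of 11 cuticle protein genes had an IDR summit (upper limit 28.5%), against 41.0%. The part of TSS number, neighbours and TATAAA in the low share was not tested.

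**Figure D5:**
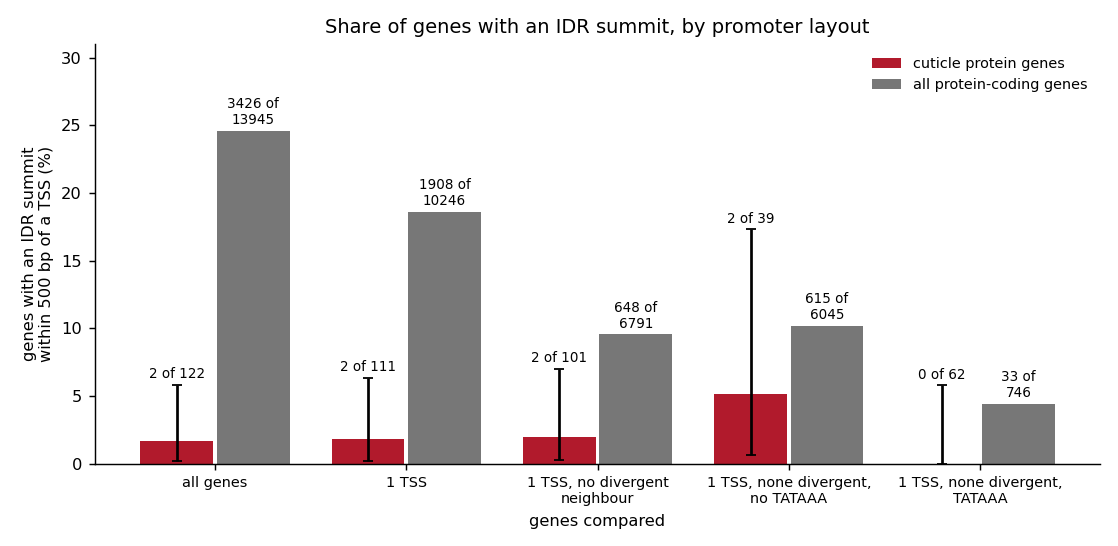
Share of genes (%) with an IDR summit within 500 bp of a TSS in cuticle protein genes (red, with 95% exact intervals) and in all protein-coding genes (grey), over all genes and over genes of matched promoter layout, with the counts above the bars. The share of all protein-coding genes was 24.6% at the left and 4.42% in the class with TATAAA at -40 to -15, where 0 of 62 cuticle protein genes had a summit. The class labelled no TATAAA lacks it at -40 to -15 only, and its 2 cuticle protein genes with a summit have it at -44 and -45.

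Base composition and repeats were also described. When all genes were split into 4 classes by promoter G and C content, 26.4%, 28.5%, 24.8% and 18.4% had an IDR summit in order of rising content, and the classes held 5, 11, 49 and 57 cuticle protein genes, of which 0, 0, 1 and 1 had one. Recent duplicates can lose reads that map to several places. More than 10% of the 50-base words within 500 bp of the TSS occurred again in the genome for 11 cuticle protein genes (9.02%), against 3.64% of other genes. They were 8 genes of the Lcp65Ag3 to Cpr65Az cluster, Ccp84Aa, Ccp84Ab and TwdlL, and their values are uncertain. None of these 11 had an IDR summit, so leaving them out could change only the number of genes, to 2 of 111. Whether reads were lost at them was not tested.

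Genes outside the rule that build cuticle or control the epidermis were set beside these values. From 4 lists of 58 symbols, 57 matched a gene, and 15 of them (26.3%) had an IDR summit, near the 24.6% of all protein-coding genes. Of 24 genes for chitin and its matrix, 4 had one, with the highest signals at the chitinase gene Cht7 (1206; 734 in replicate 1, 472 in replicate 3), at Gfat2 (487; 297 in replicate 1, 194 in replicate 3), for an enzyme at the start of the hexosamine pathway, and at mmy (409; 238 in replicate 1, 30.5 in replicate 3), for the enzyme that makes the sugar donor of chitin. Of 8 tanning and pigment genes, 1 did, Pu (255; 151 in replicate 1, 104 in replicate 3), for GTP cyclohydrolase. Of 8 matched genes with zona pellucida domains or of the apical matrix, 1 did, tyn (387; 231 in replicate 1, 149.5 in replicate 3). The mmy summit was below the median signal of the replicate 3 list, 31.8. Of 17 ecdysone and epidermal regulators, 9 did (52.9%), with the highest signals at the ecdysone-induced genes Eip75B (1488; 938 in replicate 1, 553 in replicate 3) and Eip93F (1249; 1007 in replicate 1, 243 in replicate 3) and at grh (1423; 826 in replicate 1, 612 in replicate 3), which encodes the epidermal factor Grainy head. Of these 17 regulators 13 have 2 or more TSSs, and 7 of the 13 had a summit, beside the 41.0% of all genes of that kind.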

How the data were processed

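CG15710-GFP chromatin was profiled in 2 biological replicates of 24-hour pupae, and 4 narrowPeak lists on dm6 were read. The signal value in column 7 is deposited with each peak by the authors on an unstated scale. The −log10 q-value in column 9 is also as deposited, and a q-value of 0.05 was the limit used here. Per the labels, the assembly was dm6 and the chromatin was sonicated. Which aligner and peak caller were used, and at which IDR limit, is not given in the sources used here. A control experiment named in the labels was not analysed here.

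Summits (start plus the offset in column 10) were set against TSSs of Ensembl release 115 (BDGP 6.54), and sequence was read from the RefSeq copy of the assembly. All 122 genes had the same start and end in both annotations, and 0 peaks ran past the end of an arm. Python 3.11.15, NumPy 2.4.6, SciPy 1.17.1 and Matplotlib 3.10.9 were used, and the distance, window and cluster steps were tested on simulated data. The genes, lists and comparisons were chosen with earlier results of these data known, so no test was run. A peak list gives 1 value per peak, so replicate values are printed without an SD.

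Named were genes with an IDR summit, the 10 with the strongest pooled summit, cluster ends, genes at the IDR summits outside clusters of 5 or more genes, the 5 farthest genes, and up to 3 genes of each other list. Genes named beyond this rule were chosen after their values were seen. Alternatives were windows of 250 and 1000 bp, the 4241 IDR peaks of highest signal, the 8483 strongest peaks of each replicate alone, any base of the peak in place of the summit, nearest-TSS assignment, and cluster gaps of 10 and 50 kb. The symbol dp matched no protein-coding gene.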

Additional observations from a re-analysis of the deposited data

How the results depend on the processing

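Within 500 bp, 2 cuticle protein genes had an IDR summit, and the count was 0 at 250 bp, 5 at 1000 bp, 1 (Cpr72Ea) with the 4241 IDR peaks of highest signal (13.6% of all protein-coding genes), 3 with any base of a peak within 500 bp (26.1% of all genes), 2 without replicate 1 (24.8%) and 2 without replicate 3 (24.3%). With those 4241 peaks, the median distance to a summit was 21749.5 bp (9757 bp for other genes), the clusters held 2 summits in 2 clusters, a density of 8.22 per Mb, and the median edge distance was 20.6 kb. Leaving out a replicate gave a median distance of 7873 bp without replicate 1 (4422 bp for other genes) and 15610.5 bp without replicate 3 (4792 bp for other genes), 4 to 8 summits in 4 to 6 clusters, 16.4 to 32.9 summits per Mb, and edge medians of 18.7 to 19.3 kb. The cause of these shifts was not tested. Of 13 pooled calls, 7 had a q-value of at most 0.05, an alternative chosen after seeing the data, as was leaving out genes with repeated words. Other cluster gaps, nearest-TSS assignment and the 4 other lists (11 to 20 genes) stayed within 1.5 times of the values reported. No paired analysis was possible because the study has 1 group. Promoters were read from the genome, so no second promoter source was compared. The counts rest on few summits, 1 group and lists without read counts.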
